A study of Mus musculus with 13 samples.

Results

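The mouse genes named Zfp with a number of 600 or more, up to Zfp995, were followed in double-positive thymocytes. These are immature T cells of the thymus with CD4 and CD8 both on their surface. Members were chosen by name alone: of the 17849 genes in the deposited RNA-seq table, 131 had an Ensembl identifier whose symbol is Zfp and such a number. The rule itself uses no measured value, but it was set with earlier results of these data known. The nearest number below the range in the table was Zfp599, and the lowest and highest inside it were Zfp605 and Zfp995. RNA-seq compared 2 libraries of sorted wild type thymocytes with 2 libraries of sorted thymocytes labelled Rad21 knockout (KO). Rad21 is a subunit of cohesin, the ring-shaped complex that holds DNA together and forms chromatin loops. The labels state neither how Rad21 was removed nor the age of the mice, and do not say whether each library is from its own animal. The p-values therefore cover only the spread between these libraries, which may be technical. A mixed C57BL/6 and 129 background is stated for the ChIP and Hi-C samples of the series and not for the RNA-seq samples.

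Most genes with such names encode proteins with tandem C2H2 zinc fingers, in which each finger contacts a few bases of DNA. Many also carry a KRAB domain, which binds the corepressor Trim28 (KAP1). Trim28 recruits the histone H3 lysine 9 methyltransferase Setdb1 and heterochromatin proteins, and many KRAB zinc finger proteins silence endogenous retroviruses and other transposable elements in this way. The KRAB genes arose by repeated local duplication and lie in clusters of similar copies. The name is not proof of the domain: members such as Zfp638, Zfp644, Zfp703 and Zfp706 are known for other protein architectures.

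Counting across near-identical copies is uncertain. The sequences upstream of some members that differed between genotypes are shown first. They lie before the annotated start, so a match between them does not show how alike the transcripts are. Each run is the 250 bases before the start annotated by RefSeq on build GRCm38.p6, read 5′ to 3′ in the direction of transcription. The pair Zfp758 and Zfp943 of chromosome 17 is shown because both fell in the knockout and their upstream sequences are the same over most of the window. Capitals mark the longest run that both share, 198 bases.
Zfp758 (GRCm38.p6 chr17:22361213-22361462, plus strand): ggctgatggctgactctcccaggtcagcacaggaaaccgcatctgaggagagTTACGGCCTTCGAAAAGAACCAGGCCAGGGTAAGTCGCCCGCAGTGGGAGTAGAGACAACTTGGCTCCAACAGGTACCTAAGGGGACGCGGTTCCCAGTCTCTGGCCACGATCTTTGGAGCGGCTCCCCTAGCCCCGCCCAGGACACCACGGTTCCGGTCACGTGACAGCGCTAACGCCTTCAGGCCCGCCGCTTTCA
Zfp943 (GRCm38.p6 chr17:21962309-21962558, plus strand): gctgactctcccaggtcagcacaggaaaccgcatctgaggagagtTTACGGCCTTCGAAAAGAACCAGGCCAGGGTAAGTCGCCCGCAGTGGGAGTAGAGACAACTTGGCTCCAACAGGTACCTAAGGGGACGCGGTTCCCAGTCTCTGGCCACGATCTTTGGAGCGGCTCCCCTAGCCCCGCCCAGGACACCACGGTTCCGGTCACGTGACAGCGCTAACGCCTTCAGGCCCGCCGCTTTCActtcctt
A global alignment with free ends matched 242 bases of the pair with 0 mismatches and 1 internal gap base. Among all member promoters in the table, the next longest shared run was 157 bases, between Zfp942 and Zfp944 of the same chromosome, and 70 bases between Zfp936 and Zfp976 of chromosome 7. Zfp820 and Zfp995 are shown as the neighbouring pair of the same chromosome 17 cluster that also fell, and Zfp979 as the member that rose furthest. In these 3 runs capitals mark CCCTC or CCAAT on either strand, a core of the motif of the cohesin partner Ctcf and the CCAAT box bound by NF-Y.
Zfp820 (GRCm38.p6 chr17:21845760-21846009, minus strand): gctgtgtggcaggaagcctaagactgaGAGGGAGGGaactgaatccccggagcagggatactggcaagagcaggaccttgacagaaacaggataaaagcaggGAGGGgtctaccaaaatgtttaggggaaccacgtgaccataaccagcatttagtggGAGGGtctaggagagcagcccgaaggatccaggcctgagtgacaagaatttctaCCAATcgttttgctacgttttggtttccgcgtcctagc
Zfp995 (GRCm38.p6 chr17:21909927-21910176, minus strand): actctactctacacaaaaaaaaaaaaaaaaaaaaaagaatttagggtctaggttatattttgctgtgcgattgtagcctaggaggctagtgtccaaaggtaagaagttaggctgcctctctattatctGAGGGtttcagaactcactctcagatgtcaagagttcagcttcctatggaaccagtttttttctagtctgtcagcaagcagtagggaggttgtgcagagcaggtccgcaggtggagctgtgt
Zfp979 (GRCm38.p6 chr4:147642509-147642758, minus strand): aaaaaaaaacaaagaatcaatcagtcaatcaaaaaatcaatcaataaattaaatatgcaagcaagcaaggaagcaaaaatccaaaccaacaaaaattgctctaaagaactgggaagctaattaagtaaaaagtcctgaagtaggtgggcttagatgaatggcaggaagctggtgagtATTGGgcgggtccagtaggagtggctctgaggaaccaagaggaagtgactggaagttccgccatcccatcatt
The windows of Zfp820 and Zfp995 held 4 and 1 matches to CCCTC, and that of Zfp979 held 0. A match describes letters and is not a binding site.

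The libraries held 6500819 to 9384505 counts, and a count of 3, taken as the detection floor, corresponded to 0.410 to 0.417 CPM (counts scaled to library size with TMM factors). Rad21 stood at 67.9 and 65.7 CPM in the knockout libraries and at 271 and 233 CPM in the wild type libraries, so both knockout libraries carried the reduction their label states. Lars2 and the noncoding gene Gm15564 made up 34.5% and 12.6% of Rad21 KO replicates 1 and 2 by counts, and 5.84% and 7.47% in the wild type replicates. Of the 12 markers of double-positive cells all were tested, 5 fell and 0 rose, with a summed level of 10623 to 12010 CPM in the knockout and 15449 to 17032 CPM in wild type libraries. Markers of B cells (6 of 6 in the table) summed to 17.5 to 21.9 CPM over all libraries, of macrophages and dendritic cells (7 of 7) to 16.6 to 30.7, of erythroid cells (4 of 6) to 3.56 to 7.78, of neutrophils (4 of 6) to 0.831 to 1.64, and of germ and embryonic stem cells (5 of 7) to 3.28 to 6.65. The 8 markers of thymic epithelium and stroma summed to 24.8 and 30.3 CPM in the knockout and 20.2 CPM in each wild type library, with 1 of them, Epcam, higher (69 and 84 counts against 11 and 7) and Pdgfra at 0 in every library. The part of these differences in the results on zinc finger genes was not tested. In such bulk samples, fewer cells of a type and less RNA per cell cannot be told apart.

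More zinc finger genes fell than rose when Rad21 was lost. Of the 131 members, 111 passed the filter on low counts, and 16 of these passed an adjusted p of 0.05 (edgeR's quasi-likelihood test, QL below, of Rad21 KO against wild type with 2 libraries per genotype and Benjamini-Hochberg adjustment over all 12003 genes tested). The 16 calls are 14.4% of the tested members, beside 12.8% of all tested genes. The direction was uneven: 13 members were lower (11.7%, beside 5.17% of all tested genes) and 3 were higher (2.70%, beside 7.60%). Among all genes the balance ran the other way, with 912 called higher and 621 lower. The count of lower members rests on the libraries, the filter and the test, as does the count over all genes. With no filter on low counts, 4 of 129 members were lower (7 calls), beside 0.870% of all 17003 genes. DESeq2 called 7 of 111 lower and 3 higher, beside 4.26% of all genes lower. Without either wild type library fewer members and fewer genes in all were called lower. The members' median minus that of all genes was then -0.11 without replicate 1 and -0.15 without replicate 2, beside -0.16 with all libraries.

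The median log2 fold change of the 111 tested members was -0.17, with quartiles of -0.55 and 0.16, beside a median of -0.01 and quartiles of -0.28 and 0.28 over all tested genes. Both knockout libraries lay below both wild type libraries for 49 tested members (44.1%, beside 29.2% of all tested genes) and above them for 25 (22.5%, beside 29.7%). These values include the called members. For the 95 tested members that were not called the median was -0.10, beside -0.02 for all 10470 genes not called, and both knockout libraries lay below both wild type libraries for 36 (37.9%, beside 27.5%) and above them for 22 (23.2%, beside 25.4%). The Zfp genes with numbers below 600 had a median of -0.03, with 12 lower (7.41%) and 5 higher (3.09%) of 162 tested. In that set both knockout libraries lay below both wild type libraries for 59 (36.4%) and above them for 35 (21.6%). An uneven direction was thus seen in these genes too. As a share of all counts other than Lars2 and Gm15564, the members took 0.442% and 0.456% in the knockout replicates and 0.480% and 0.477% in the wild type replicates. With library totals in place of TMM factors the median of all tested genes shifted to -0.29 and that of the members to -0.45. The split of all calls then turned from 59.5% higher to 28.7% higher, while the distance between both medians stayed at -0.16.

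**Figure D1:**
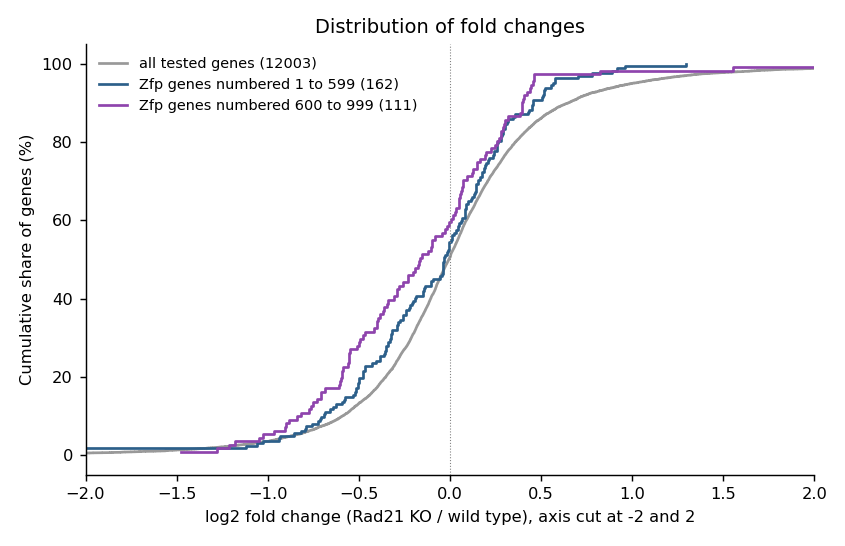
Cumulative share of genes (%, vertical axis) by log2 fold change of Rad21 KO over wild type (horizontal axis, shown from -2 to 2) for all 12003 tested genes, 162 Zfp genes numbered below 600 and 111 numbered 600 or more. The line of the members runs to the left of the others over negative fold changes, with a median of -0.17 against -0.01 for all tested genes.

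Members were also counted by abundance, with no test of a difference between ranges. Of 35 members with a mean under 10 CPM, 1 fell and 0 rose (beside 2.36% lower and 4.41% higher of all genes in that range), and the median was -0.29. From 10 to 50 CPM, 9 fell and 2 rose of 54 (beside 4.84% and 7.94%), with a median of -0.22. Of the 22 members over 50 CPM, 3 fell and 1 rose (beside 7.98% and 10.0%), with a median of -0.01. The range with the lowest median thus held the fewest calls. Over all genes of the same ranges the medians were -0.05, 0.00 and 0.01. These levels are not corrected for transcript length, so they rank sequencing support and not molecules per cell.

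**Figure D2:**
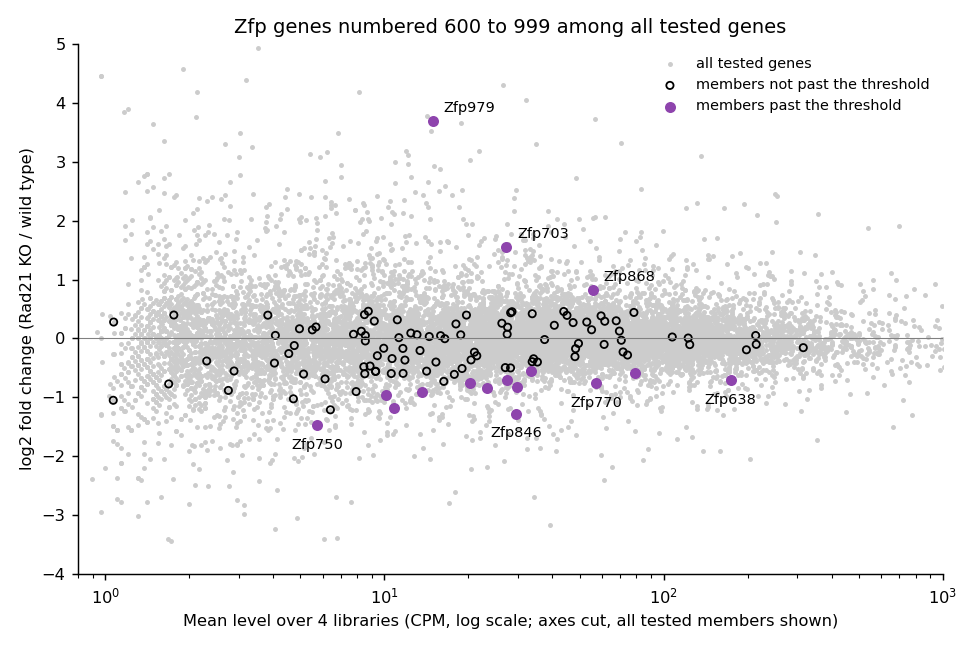
log2 fold change of Rad21 KO over wild type (vertical axis) against the mean level over the 4 libraries in CPM (log axis), with all tested genes in grey, members not past the threshold as open circles and the 16 members past it in purple; the axes are cut for other genes. Of the purple points 3 lie above 0 and 13 below, and Zfp979 stands highest at 3.69.

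Of the 3 members that rose, Zfp979 changed most. This gene of chromosome 4 (ENSMUSG00000066000) had 246 and 156 counts in Rad21 KO replicates 1 and 2, or 33.7 and 21.7 CPM, and 15 and 16 counts in the wild type replicates, or 2.05 and 2.22 CPM. The groups were far apart and did not overlap, and the knockout libraries differed more from each other than the wild type libraries did. Its log2 fold change was 3.69 (SE 0.31, edgeR QL adjusted p = 0.00154), a 12.9-fold rise, and it passed in all 12 alternative settings. Where similar copies share reads, its counts are uncertain.

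The members nearest to Zfp979 on chromosome 4 did not share its rise in a tested way. Zfp933 had 36.0 and 38.5 CPM in the knockout and 33.9 and 41.5 CPM in wild type libraries, with overlapping groups. Zfp985, whose upstream window shares a run of 21 bases with that of Zfp979, was too low to test. Its counts were 13 and 10 in the knockout and 3 and 4 in wild type, a ratio of 3.29 with an exact 95% interval of 1.37 to 9.09 that covers counting error only.

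Zfp703 and Zfp868, both of chromosome 8, were the other members that rose. Zfp703 (ENSMUSG00000085795) encodes a transcriptional corepressor of the NET family, known as an oncogene of luminal breast cancer in its human form. It stood at 44.5 and 37.0 CPM in the knockout and 14.6 and 13.2 CPM in wild type, groups that did not overlap, with a log2 fold change of 1.55 (SE 0.17, edgeR QL adjusted p = 0.00327). Its paralogue Zfp704, named after its values were seen, had 42.4 and 43.6 CPM in the knockout and 44.8 and 61.8 CPM in wild type, a log2 fold change of -0.31 (SE 0.17) that did not pass.

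Zfp868 (ENSMUSG00000060427) was close between replicates, at 70.4 and 72.0 CPM in the knockout and 42.2 and 38.4 CPM in wild type, a log2 fold change of 0.82 (SE 0.12, edgeR QL adjusted p = 0.00817). The call was lost with library totals in place of TMM factors (0.54, edgeR QL adjusted p = 0.233). In its cluster of 6 members on chromosome 8, Zfp869 had a log2 fold change of 0.46 (edgeR QL adjusted p = 0.0659) and Zfp866 of -0.03, while Zfp930 and Zfp963 stood at -0.48 and -0.60. Zfp868 alone of this cluster was called.

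**Figure D3:**
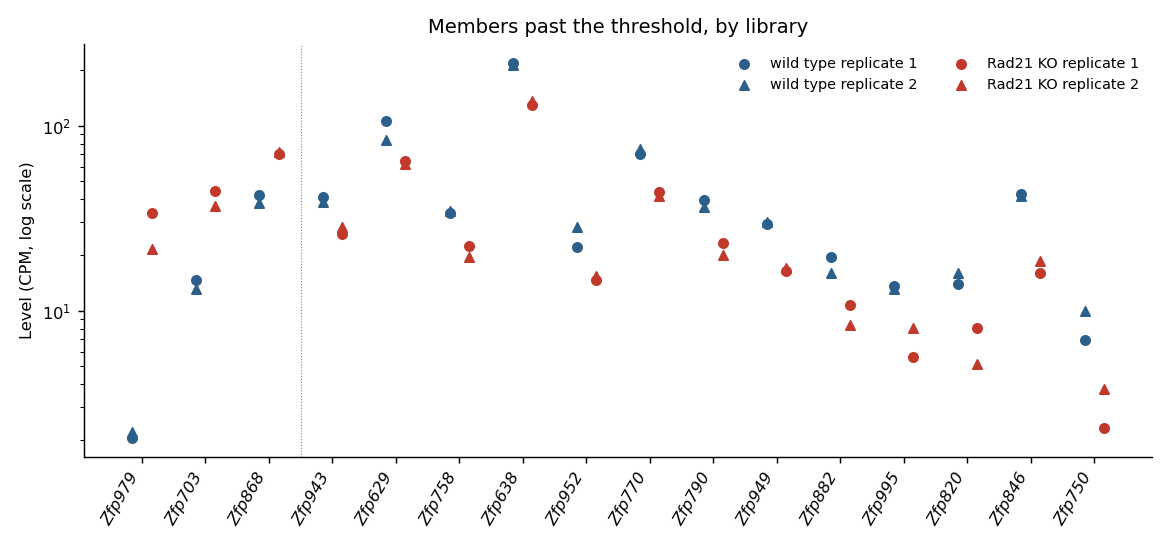
Level in CPM (log axis) of the 16 members past the threshold in each library, with wild type in blue, Rad21 KO in red, circles for replicate 1 and triangles for replicate 2. The 3 genes left of the dotted line have both knockout libraries above both wild type libraries, and the 13 to its right have them below.

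Among the 13 members that fell, Zfp638, Zfp770 and Zfp846 kept their calls in all 12 alternative settings. Of the other 10, all but Zfp949 did not pass when no filter on low counts was used, and Zfp750, Zfp758, Zfp882, Zfp943, Zfp952 and Zfp995 did not pass with DESeq2. Zfp638 (ENSMUSG00000030016, chromosome 6) encodes a large nuclear protein that binds RNA and DNA and is known to bring the HUSH silencing complex to unintegrated retroviral DNA. It had 944 and 973 counts in the knockout and 1603 and 1533 in wild type, or 129 and 135 CPM against 219 and 212 CPM. Replicates were close and the groups well apart, with a log2 fold change of -0.71 (SE 0.10, edgeR QL adjusted p = 0.00613). Zfp846 (ENSMUSG00000058192, chromosome 9) stood at 16.0 and 18.6 CPM in the knockout and 42.5 and 41.7 CPM in wild type, a fall to 41.2% of the wild type level (log2 fold change -1.28, SE 0.15, edgeR QL adjusted p = 0.00393). Zfp770 (ENSMUSG00000040321, chromosome 2) stood at 43.8 and 41.6 CPM against 70.1 and 74.6 CPM, a log2 fold change of -0.76 (SE 0.12, edgeR QL adjusted p = 0.0102).

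Zfp949 of chromosome 9 and Zfp790 of chromosome 7 were lower by like amounts. Zfp949 had 120 and 122 counts in the knockout and 215 and 219 in wild type (log2 fold change -0.84, SE 0.15, edgeR QL adjusted p = 0.0166). Zfp790 had 23.1 and 20.0 CPM against 39.9 and 36.3 CPM (-0.82, SE 0.15, edgeR QL adjusted p = 0.0187). In both genes the groups were separate and the replicates close. The call of Zfp949 was lost without wild type replicate 2 (-0.82, edgeR QL adjusted p = 0.0511) and that of Zfp790 without wild type replicate 1 (-0.75, edgeR QL adjusted p = 0.0621) by the same edgeR test.

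Zfp750, of chromosome 11, had the lowest fitted fold change of the members. It encodes a regulator of epidermal differentiation that acts upstream of Klf4. Its counts were 17 and 27 in the knockout and 51 and 72 in wild type, or 2.33 and 3.75 CPM against 6.97 and 9.97 CPM. The groups did not overlap, but few counts supported them, and the log2 fold change was -1.47 (SE 0.36, edgeR QL adjusted p = 0.0410). It did not pass when wild type replicate 2 (-1.20) or Rad21 KO replicate 1 (-1.16) was left out, nor with DESeq2 (-1.48).

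Zfp629 and Zfp882 also fell and lie outside the large cluster of chromosome 17. Zfp629 of chromosome 7 stood at 64.7 and 61.8 CPM in the knockout and 106 and 84.2 CPM in wild type (log2 fold change -0.59, SE 0.14, edgeR QL adjusted p = 0.0396), with the wild type libraries further apart than the knockout libraries. Zfp882 of chromosome 8 stood at 10.7 and 8.34 CPM against 19.5 and 16.1 CPM (-0.90, SE 0.22, edgeR QL adjusted p = 0.0407). The call of Zfp629 was lost on leaving out Rad21 KO replicate 1 (-0.61), Rad21 KO replicate 2 (-0.54) or the first wild type replicate (-0.41), and that of Zfp882 without Rad21 KO replicate 2 (-0.72), wild type replicate 1 (-0.76) or wild type replicate 2 (-1.04). Zfp637 and Zfp839, named after their values were seen, narrowly missed the threshold, with log2 fold changes of -0.73 (edgeR QL adjusted p = 0.0515) and -0.90 (edgeR QL adjusted p = 0.0527).

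Chromosome 17 held 5 of the 13 members that fell, and 17 of the 111 tested members. Clusters were built from the gene order of RefSeq on GRCm38.p6, used for neighbourhood only since the counts were made on mm9: members with at most 5 other protein-coding genes between them were joined. This gave 10 clusters of 3 or more members, which held 49 members, 43 of them tested, with 6 lower and 2 higher. The 55 members with no such neighbour had 6 lower and 1 higher of 45 tested, and the 13 pairs 1 lower and 0 higher of 23. The median log2 fold change was -0.10 in clusters, -0.19 in pairs and -0.16 in single members. These differences were not tested.

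The largest cluster, with 13 members on chromosome 17, had all members tested, 4 lower and 0 higher, and a median log2 fold change of -0.55. The 4 lower stand beside 11.7% of all tested members, which include this cluster, and 5.17% of all tested genes. In 10 of the 13 the fold change was below 0, beside 59.5% of tested members and 50.5% of all tested genes. In 9 both knockout libraries lay below both wild type libraries, beside 44.1% and 29.2%. The members that fell were Zfp820, Zfp995, Zfp758 and Zfp943. Zfp820 stood at 8.08 and 5.14 CPM in the knockout and 13.9 and 16.1 CPM in wild type (log2 fold change -1.18, SE 0.27, edgeR QL adjusted p = 0.0341). The adjacent Zfp995 stood at 5.61 and 8.06 CPM against 13.5 and 13.2 CPM (-0.96, SE 0.25, edgeR QL adjusted p = 0.0489). These 2 were the only called members that are direct neighbours of each other among the 13 that fell. Their calls rest on few counts: that of Zfp820 was lost on leaving out wild type replicate 2 (-1.08) or Rad21 KO replicate 2 (-0.88), and that of Zfp995 without Rad21 KO replicate 1 (-0.72), wild type replicate 1 (-0.95) or wild type replicate 2 (-0.99).

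Zfp758 and Zfp943, whose upstream sequences match as shown above, differed between genotypes by similar amounts. Zfp758 had 22.4 and 19.5 CPM in the knockout and 33.9 and 34.5 CPM in wild type (log2 fold change -0.71, SE 0.15, edgeR QL adjusted p = 0.0291). Zfp943 had 190 and 205 counts against 300 and 279 (-0.55, SE 0.14, edgeR QL adjusted p = 0.0465). The other pair with long shared upstream sequence, Zfp942 and Zfp944, did not pass, with log2 fold changes of -0.10 and -0.34. Reads of such copies may have been split between them, but their transcripts were not compared. How the authors treated reads with several matches is not given in the sources used here. The call of Zfp758 was lost on leaving out Rad21 KO replicate 2 (-0.59), wild type replicate 1 (-0.72) or wild type replicate 2 (-0.70), and that of Zfp943 whichever of the 4 libraries was left out (-0.47 to -0.60).

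The other members of this cluster varied more. Zfp946 had the lowest value, -1.21 (SE 0.39, edgeR QL adjusted p = 0.0911), from 38 and 18 counts in the knockout and 55 and 75 in wild type. It passed without Rad21 KO replicate 1 (-1.82) and with library totals (-1.56). Zfp948 had a log2 fold change of -1.05 (SE 0.51) on 6 and 4 counts against 10 and 11, Zfp677 of -0.55 (SE 0.29) and Zfp947 of -0.47 (SE 0.24). Zfp677 passed without Rad21 KO replicate 2 (-1.04). Zfp945 ran the other way at 0.38 (SE 0.24), carried by Rad21 KO replicate 2 with 84.9 CPM beside 50.4 in replicate 1 and 57.0 and 46.7 in wild type. Without that library its value was -0.03, and without Rad21 KO replicate 1 it was called higher at 0.72. Summed over the cluster, Rad21 KO replicate 1 stood at 229 CPM, replicate 2 at 293 CPM and the wild type replicates at 322 and 302 CPM.

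**Figure D4:**
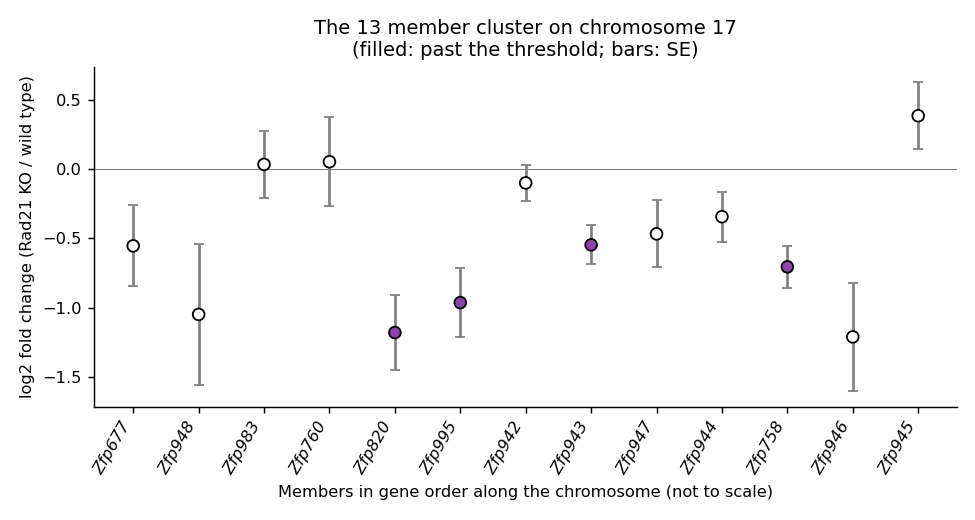
log2 fold change of Rad21 KO over wild type (vertical axis) for the 13 members of the chromosome 17 cluster in gene order (horizontal axis, not to scale), with standard errors as bars and the 4 members past the threshold filled. Values run from -1.21 for Zfp946 to 0.38 for Zfp945, and 10 of the 13 lie below 0.

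The other clusters held 2 calls lower and 2 higher between them. The 4 members of the second chromosome 17 cluster included Zfp952, which stood at 14.6 and 15.4 CPM in the knockout and 22.1 and 28.5 CPM in wild type (log2 fold change -0.75, SE 0.19, edgeR QL adjusted p = 0.0445). It failed to pass when Rad21 KO replicate 1 was left out (-0.71), likewise Rad21 KO replicate 2 (-0.78) or wild type replicate 2 (-0.56). Its cluster mate Zfp871, among the members with most counts, had 217 and 219 CPM against 204 and 216 CPM, a log2 fold change of 0.05 (SE 0.09), which turned to -0.23 with library totals in place of TMM factors. On chromosome 13, all 3 members of a cluster (Zfp708, Zfp712 and Zfp759) had fold changes below 0, from -0.56 to -0.26, and 0 passed. On chromosome 6, all 3 tested members of a cluster of 4, which holds Zfp746, a repressor known as PARIS, had fold changes above 0, from 0.22 to 0.45, and 0 passed. On chromosome 7, the 6-member cluster around Zfp688 had 0 calls and values from -0.60 to 0.40. Members on chromosome 7 numbered 34, of which 29 were tested, 2 fell and 0 rose.

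The genes next to the called members were counted beside the share over all genes. Members that fell were left out as neighbours of each other, as with the adjacent Zfp820 and Zfp995. The 13 members that fell then had 23 other adjacent protein-coding genes, some of them uncalled members such as Zfp942 and Zfp946. Of these 22 were tested, 0 were lower and 2 were higher, and their median log2 fold change was -0.20. All tested genes, with no gene left out in this way, had 5.17% lower and 7.60% higher. The count of 0 lower is thus in part set by the rule. The 2 higher genes were Zfp472, a lower-numbered zinc finger gene, and Paip2b, a regulator of poly(A)-binding protein, named after their values were seen. Their log2 fold changes were 0.70 (SE 0.18, edgeR QL adjusted p = 0.0478) and 0.60 (SE 0.14, edgeR QL adjusted p = 0.0349). Of the 6 neighbours of the 3 members that rose, 2 were tested and 0 were called.

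Members with the most counts, apart from Zfp638, changed little between genotypes. By counts these were Zfp644, Zfp740, Zfp871, Zfp646, Zfp638 and Zfp652, of which Zfp638 alone passed. Zfp644, a partner of the H3K9 methyltransferase G9a, stood at 289 and 311 CPM in the knockout and 345 and 323 CPM in wild type (log2 fold change -0.16, SE 0.10). Zfp740 had a log2 fold change of -0.10 (SE 0.10), Zfp646 of -0.19 (SE 0.11) and Zfp652, a partner of the corepressor Cbfa2t3, of -0.10 (SE 0.10). For Zfp638, Zfp644, Zfp646 and Zfp652 both knockout libraries lay below both wild type libraries. For Zfp871 both lay above, and for Zfp740 the groups overlapped.

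Several members with known roles, named after their values were seen, did not pass. Zfp609, which binds the cohesin loader Nipbl and the Integrator complex, stood at 79.8 and 69.6 CPM in the knockout and 60.9 and 60.4 CPM in wild type (log2 fold change 0.30, SE 0.12, edgeR QL adjusted p = 0.160). Its relative Zfp608, a repressor of the recombinase genes Rag1 and Rag2, had 5.75 and 5.84 CPM against 4.37 and 6.09 CPM, with overlapping groups. Zfp809, the KRAB protein that silences murine leukaemia virus through its primer binding site, had 8.08 and 11.3 CPM against 6.83 and 7.76 CPM (0.41, SE 0.27). Zfp622, a factor of ribosome assembly, stood at 83.8 and 96.7 CPM against 71.2 and 61.6 CPM (0.44, SE 0.13, edgeR QL adjusted p = 0.0764). Zfp683, known as Hobit in tissue-resident T cells, had 0 or 1 counts in each library, at or under the floor of 3.

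In total 20 members were too low to test. Zfp791 and Zfp936 had 0 counts in all libraries, and 9 of the 20 had fewer than 3 counts in each library, so at this depth nothing can be said of a difference. The highest single count among the 20 was 14, in Rad21 KO replicate 2 for Zfp711. For low members with more than 3 counts summed over either genotype, intervals of the ratio were computed, with no adjustment for their number. Those of Zfp985 above and Zfp697 did not include 1. Zfp697 had 1 and 5 counts in the knockout and 0 and 0 in wild type. It met that limit through the knockout alone, and most of its counts came from 1 library. The lower bound of its ratio, 1.18 from counting error alone, therefore does not show a difference.

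Some tested members differed more between replicates than between genotypes, and their number was not counted. Among the 76 tested members with a mean of at least 10 CPM, the median ratio of the higher to the lower replicate was 1.15 in the knockout and 1.10 in wild type, and it passed 1.5 in 10 members in the knockout and 2 in wild type. Zfp655 had 27.1 CPM in Rad21 KO replicate 1 and 107 CPM in replicate 2, beside 80.2 and 82.8 CPM in wild type. Zfp688 was high in replicate 1 and low in replicate 2 of both genotypes, at 22.7 and 10.1 CPM in the knockout and 21.3 and 11.6 CPM in wild type. Neither passed the test (edgeR QL adjusted p = 0.763 and 0.997 with edgeR QL).

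Genes of the machinery linked to KRAB repression, general chromatin factors among them, were tested from a list of 32 symbols, 30 of them in the table. Of 28 tested, 5 fell and 1 rose (17.9% and 3.57%, beside 5.17% and 7.60% of all tested genes). Their middle value stood at -0.28 on the log2 scale. Genes of this list had a median level of 124 CPM, beside 27.0 CPM for all tested genes. Calls were more frequent at high levels: over 50 CPM, 7.98% of all genes were lower and 10.0% higher. The shares of all tested genes are thus not matched for level, and a difference at like level was not tested. Trim28 itself was level, at 282 and 280 CPM in the knockout and 285 and 259 CPM in wild type (0.05, SE 0.10), and Setdb1 stood at -0.31 (SE 0.12, edgeR QL adjusted p = 0.141). Cbx5, which encodes the heterochromatin protein HP1α, fell from 247 and 230 CPM in wild type to 138 and 127 CPM (-0.85, SE 0.10, edgeR QL adjusted p = 0.00398), and it passed in all 12 alternative settings. Cbx1, which encodes HP1β, fell by 0.57 on the log2 scale (SE 0.11), the deacetylase gene Hdac1 by 0.66 (SE 0.14), the DNA methyltransferase gene Dnmt3a by 0.40 (SE 0.10) and the Setdb1 cofactor gene Atf7ip by 0.36 (SE 0.09), the last just inside the threshold. The H3K9 methyltransferase gene Suv39h2 rose, from 23.5 and 28.4 CPM to 40.9 and 52.7 CPM (0.85, SE 0.18).

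Single libraries decided some of these calls. That of Cbx1 was lost without wild type replicate 1 (-0.50), that of Suv39h2 without wild type replicate 1 (0.72), without Rad21 KO replicate 2 (0.67) and with library totals (0.59), and those of Dnmt3a (-0.36 to -0.44) and Atf7ip (-0.33 to -0.37) whichever of the 4 libraries was left out. The count for the list was 6 with all libraries and 2 without wild type replicate 1.

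The promoters of the members were compared by their letters. RefSeq promoters of 300 bases, from 250 before to 50 after the start, were found for 114 members, 141 promoters in all. Their median number of CG dinucleotides was 13, beside 20 over promoters of all tested genes and 16 for Zfp genes numbered below 600. CCAAT was present on either strand in 53.9% of member promoters, beside 37.9% for tested genes and 37.4% for all 32851 promoters in the table, and CCCTC in 58.9%, beside 75.1% and 66.0%. The YY1 motif was found in 1 member promoter (0.709%, beside 1.71% for tested genes and 0.712% for all promoters), the ZBTB33 motif in 0 (beside 0.986% and 0.466%) and the cyclic AMP response element TGACGTCA in 1, at 1 of the 2 starts of Zfp868 (0.709%, beside 3.04% and 1.79%). No motif contains another, and both strands were searched. For members that fell, 14 promoters of 12 genes were found, with 3 of them of Zfp629 and no promoter of Zfp750. Of these, 5 of 14 held CCAAT and 8 of 14 held CCCTC. For members that rose, 3 promoters of 2 genes were found, 2 of Zfp868 and 1 of Zfp979, with no promoter of Zfp703. Of these, 2 of 3 held CCAAT and 0 of 3 held CCCTC. Copies that share sequence, such as Zfp758 and Zfp943, are not independent in these counts.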

How the data were processed

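Per the labels' protocols, RNA of sorted thymocytes was sequenced after depletion of ribosomal RNA. The authors deposited estimated counts (count equivalents, all whole numbers) per Ensembl gene, and the submitters' processing notes name mm9. No source used here names the aligner, counter or strand setting, so overlapping genes and near-identical copies have uncertain counts. Symbols were found for 17342 of 17849 identifiers. Counts were rounded and entered into edgeR 4.0.16 under R 4.3.3 (filterByExpr, TMM, quasi-likelihood test of genotype, no block, Benjamini-Hochberg adjustment, threshold 0.05). Standard errors were taken from the fold change and the F statistic. DESeq2 1.42.0 and limma 3.58.1 (voom) served as alternatives, beside other scalings and filters, a replicate block, leaving out Lars2 and Gm15564, and leaving out each library. Chi-square per degree of freedom between replicate libraries, scaled by totals alone, was 85.9 for the knockout and 7.43 for wild type. No pair was thus treated as 1 library deposited again.

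Counts were also simulated for this comparison (12046 genes tested, 2 against 2 libraries). On these the test found 75 of the 100 genes given a 2-fold change and 100 of the 100 given 4-fold. Of 177 calls, 2 were false (1.13%). These shares describe the simulated counts alone. They give neither the power nor the false share for the members, whose low counts and spread were not modelled gene by gene. The chi-square values above (85.9 and 7.43) do not measure the spread in the test, since they used no TMM factors. They also include Lars2 and Gm15564, at 34.5% and 12.6% of the knockout libraries. For tested members with a mean of at least 10 CPM, the median replicate ratio was 1.15 in the knockout and 1.10 in wild type. The members and lists were chosen with earlier results of these data known. Genes named were those past the threshold with separate groups, the 6 members with most counts, 5 uncalled members of a cluster with 2 or more calls (taken by largest change, an order set after the data were seen), Rad21 and called machinery genes. All other genes named in the text, marked there or not, were chosen after their values were seen. A planned count of KRAB domains and fingers was not run, since no protein sequences were used here. Peak lists were not used, since their build differs from that of the annotation. Promoter pairs were screened by shared runs of 20 bases.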

Additional observations from a re-analysis of the deposited data

How the results depend on the processing

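Against 16 members called (13 lower, 3 higher), 17 other numbered Zfp genes, 6 machinery genes and 1533 genes in all, no filter on low counts gave 7 members (4 lower), 4 other Zfp genes, 1 machinery gene and 433 genes among 17003 tested. DESeq2 gave 10 members, 7 of them lower, with 1299 genes in all. Library totals gave 3 machinery genes, with 1194 genes in all. The replicate block gave 8 members lower and 10 other Zfp genes, with 1025 genes in all. Replicate differences had a correlation of 0.03 between genotypes over 12003 genes, which does not exclude that replicate numbers pair the samples. Leaving out 1 library gave 8 to 15 members, 5 to 10 lower, 3 to 5 higher, 10 to 18 other Zfp genes, 2 to 5 machinery genes and 947 to 1438 genes in all, lowest for members and all genes without wild type replicate 2. Of the named genes, Zfp871 changed sign with library totals (-0.23) and Zfp945 without Rad21 KO replicate 2 (-0.025, beside 0.72 without Rad21 KO replicate 1). In all 12 settings the 13 members that fell stayed below 0, the 3 that rose stayed above 0, and the members' median minus that of all genes ran from -0.17 to -0.11. Differences in the members at a few counts were not detectable at this depth.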
